A study of Mus musculus with 8 samples.

Results

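The genes described here encode the proteins of the cytosolic ribosome and the factors that start translation, as measured in the striatum of CHL2 mutant and wild-type mice. Members were taken by symbol: Rpl or Rps followed by a digit for ribosomal proteins, and Eif followed by a digit for initiation factors, without the Rps6k kinases, Rps19bp1, the Eif2ak kinases, Eif2s3x and Eif2s3y. Each gene was read from its brightest probe set among those that the array annotation assigns to 1 gene. This gave 88 of 18194 measured genes, of which 24 were assigned to the large subunit, 23 to the small subunit and 41 to the initiation factors. The 23 include Rps15a-ps6, whose symbol marks a pseudogene and whose values were all under 5 on the log2 scale. Another 31 symbols of the same form, 28 of ribosomal proteins and 3 of initiation factors, appeared only in probe sets assigned to several genes and were not analysed singly.

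The mutant group was 4 CHL2 mice, which model Huntington's disease: a tract of 150 CAG repeats taken from exon 1 of the human gene was knocked into both endogenous copies. Mice 141, 153 and 154 were female and mouse 191 was male. The comparison group was 4 wild-type mice, of which 161 was female and 170, 180 and 200 were male. All mice were 22 months old and of the strain C57BL/6 X CBA F1 hybrid, and each gave 1 Affymetrix Mouse Genome 430 2.0 array from striatal total RNA.

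The cytosolic ribosome has a small subunit, which reads the messenger RNA, and a large subunit, which joins the amino acids. Initiation factors load the small subunit with the initiator tRNA, bring it to the capped end of the messenger RNA, let it scan to the start codon and then join the large subunit. Messenger RNAs of ribosomal proteins are known for a run of pyrimidines at their very start, through which growth signals of the mTOR pathway regulate their translation.

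Promoter sequences from RefSeq (build GRCm38.p6), 300 bases long with 250 before the annotated gene start, were found for 40 of the 47 ribosomal protein genes and 32 of the 41 initiation factor genes. An unbroken run of at least 8 C or T, starting with C within 50 bases of the annotated start, was present on the coding strand of 33 (82.5%) ribosomal protein promoters and 11 (34.4%) initiation factor promoters, against 28.3% of 27025 genes with a promoter. The letters CCGGAAG, on either strand, were in 47.5% of ribosomal protein and 37.5% of initiation factor promoters, against 9.12% of all. The letters AAGATGGC, on either strand, were in 7.5% and 6.25%, against 2.88% of all. These matches describe the letters alone. The windows below run from 60 bases before to 20 bases after the first base of each gene, 5′ to 3′, with the pyrimidine run in capitals. They show the 2 ribosomal protein genes that passed the test below, Rps6 as a gene with the run at its start, and the initiation factor genes with the most positive and the most negative change among those that passed.
Rps25 (chr9:44407654-44407733, plus strand): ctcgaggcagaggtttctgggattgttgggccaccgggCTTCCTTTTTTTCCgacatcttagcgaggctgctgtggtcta
Rps6 (chr4:86857348-86857427, minus strand): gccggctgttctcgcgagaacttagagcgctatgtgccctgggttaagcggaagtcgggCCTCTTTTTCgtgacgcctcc
Rpl6 (chr5:121204441-121204520, plus strand): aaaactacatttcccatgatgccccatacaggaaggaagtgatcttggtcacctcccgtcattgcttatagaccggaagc
Eif1ax (chrX:159372118-159372197, plus strand): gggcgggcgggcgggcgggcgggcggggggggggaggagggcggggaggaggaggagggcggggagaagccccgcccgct
Eif2d (chr1:131153147-131153226, plus strand): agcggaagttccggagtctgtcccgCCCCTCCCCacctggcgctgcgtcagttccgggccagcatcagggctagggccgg
The run of Rps25 was 14 bases long and began 22 bases before the annotated start, that of Rps6 was 10 long and began 1 base before it, and that of Eif2d was 9 long and began 35 bases before it. Rpl6 had a run of 9 bases that lay after the end of its window, and Eif1ax had none by this definition.

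Marker genes of striatal cells were read in the same fit, since the values are those of whole tissue. All 13 measured markers of medium spiny neurons, through which the striatum sends its output, fell in the mutants, with a median log2 change of -1.34. Their summed signal was 15738 to 18264 in the mutants and 39213 to 43771 in wild type. Of the other lists, 2 of 8 interneuron markers and 1 of 7 oligodendrocyte markers fell. Rises were found for 2 of 9 astrocyte and 1 of 4 oligodendrocyte precursor markers, though the astrocyte median was -0.08. None of the microglial, vascular, choroid plexus, blood or cortical markers passed. Summed interneuron signal overlapped between the groups. The mean log2 level of interneuron markers, each relative to its mean over the mice, was -0.17 to -0.01 in the mutants. It was 0.04 to 0.13 in wild type, without overlap. Summed precursor signal was 2705 to 3043 in the mutants and 2192 to 2621 in wild type, and summed vascular signal was 1462 to 1507 in the mutants and 1549 to 1902 in wild type, without overlap in either. Of the 4 blood markers, 3 had all values under 5 on the log2 scale. Wild-type mouse 170 had the largest difference between the 3′ and 5′ control probe sets, a sign of RNA quality, at 1.37 for Gapdh and 2.65 for Actb, against at most 0.43 and 1.51 in any other mouse. The part of these differences in the results below was not tested, and in whole tissue fewer cells of a type and less RNA per cell cannot be told apart.

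In mutant striatum 7 members were higher and 1 was lower than in wild type at an adjusted p under 0.05. The higher genes were Rps25 and Rpl6 of the ribosome and Eif1ax, Eif1b, Eif2s2, Eif5b and Eif5a2 of the initiation machinery, and the lower gene was Eif2d. These 8 made up 9.09% of the members. Over all genes tested, 12.4% passed, 6.40% as higher and 6.01% as lower, so the share of members that passed was no greater than that of all genes. By kind, 2 of 47 ribosomal protein genes (4.26%) and 6 of 41 initiation factor genes (14.6%) passed. All changes given here are log2 values, mutant minus wild type, adjusted for sex in limma, so they can depart from the plain difference of group means. Where 4 values are given, they follow the order 141, 153, 154 and 191 for mutants and 161, 170, 180 and 200 for wild type.

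**Figure D1:**
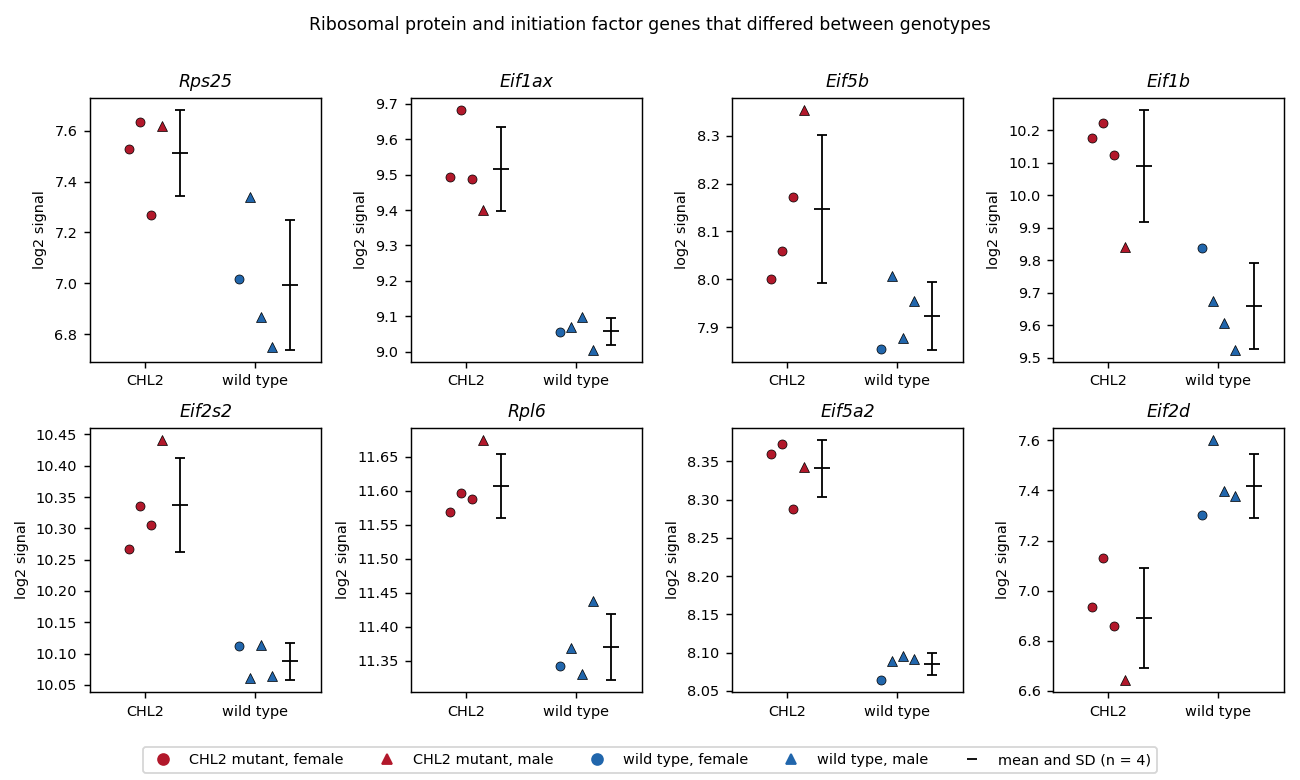
Log2 signal of the 8 members that differed between the genotypes, 1 panel per gene, with CHL2 mutants to the left of wild-type mice, circles for females, triangles for males, and bars for the mean and SD of 4 mice. The vertical axes differ between panels. The groups overlapped for Rps25 and Eif5b and did not overlap for the other 6 genes, of which Eif2d alone was lower in the mutants.

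Small positive changes made up a larger share of the members than of the array. A positive log2 change was found for 70 of 88 members, with 36 of 47 among ribosomal protein genes and 34 of 41 among initiation factor genes, against 51.2% of all genes. The median log2 change was 0.11 for ribosomal protein genes and 0.11 for initiation factor genes, against 0.01 for all genes. Many ribosomal protein genes are bright, so genes with a mean log2 signal of at least 10 were also set apart. Among the 32 ribosomal protein genes at that level, 28 had a positive change and the median was 0.11, while the 1132 genes of the array at that level had a median of 0.05, and 58.7% were positive. In the same bright range 1 of the 32 ribosomal protein genes passed the test, against 22.6% of all genes. For 23 members the mutant and wild-type values did not overlap, 22 of them higher and 1 lower in the mutants (26.1%), against 20.7% of all genes, of which 11.4% were higher and 9.27% lower. In the bright range the values stood apart for 8 of 32 ribosomal protein genes (25%) and 5 of 15 initiation factor genes (33.3%). All of these were higher in the mutants. Of all genes in that range 45.1% stood apart, and 23.9% did so as higher. The members' shares were thus below that of the array with both directions counted, but not among genes that were higher. Since the members were chosen with earlier results known, these counts and medians are descriptions without a test.

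**Figure D2:**
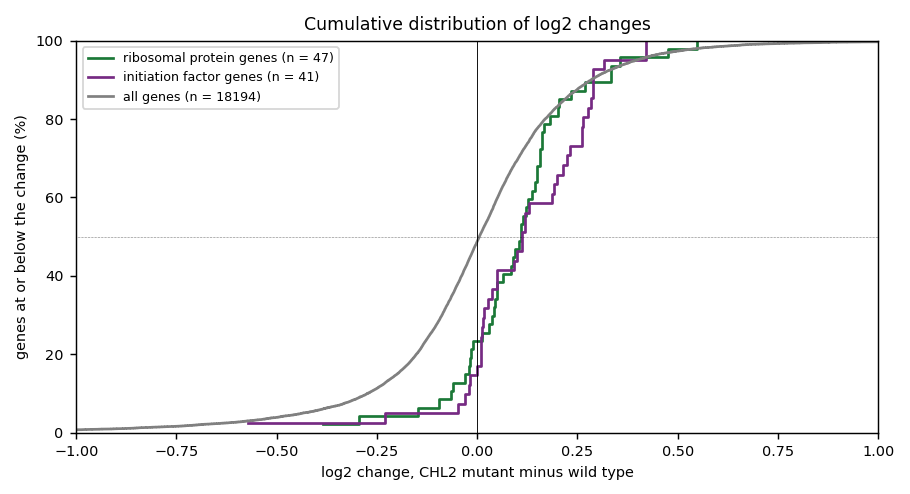
Cumulative percentage of genes (vertical axis) at or below a given log2 change between CHL2 mutants and wild type (horizontal axis, drawn from -1 to 1) for ribosomal protein genes, initiation factor genes and all genes. Both member curves cross 50% at 0.11, while the curve of all genes crosses it at 0.01, and the 3 curves meet again at larger positive changes.

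A mean level was formed in each mouse from the log2 values of a group of genes, each value taken relative to that gene's mean over the 8 mice. For initiation factors this level was 0.063, 0.096, 0.042 and 0.040 in mutants 141, 153, 154 and 191, against -0.063, -0.048, -0.071 and -0.059 in wild-type mice 161, 170, 180 and 200. The groups stood apart, with an SD of 0.026 in the mutants and 0.009 in wild type. For small subunit genes the level was 0.010 to 0.107 in the mutants, against -0.096 to -0.020 in wild type. For large subunit genes the ranges overlapped, at -0.009 to 0.077 in the mutants and -0.076 to 0.018 in wild type, with wild-type mouse 170 above mutant 141. For all ribosomal protein genes the groups only just stood apart, at 0.0003 to 0.062 in the mutants and -0.086 to -0.0007 in wild type. The gap between them was far smaller than the SD of 0.029 in the mutants and 0.038 in wild type. For those with a mean log2 signal of at least 10 they overlapped, at -0.006 to 0.070 in the mutants and -0.098 to 0.018 in wild type. The mean over all genes overlapped too, at -0.015 to 0.015 in the mutants and -0.010 to 0.026 in wild type. Unlike the fitted changes, these levels are not adjusted for sex.

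**Figure D3:**
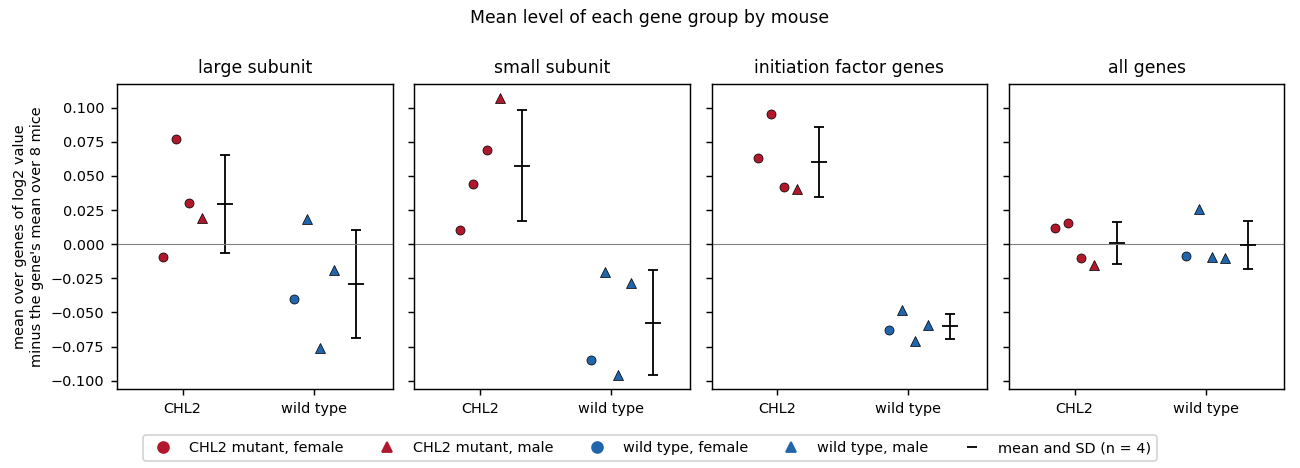
Mean relative log2 level (vertical axis) of large subunit, small subunit, initiation factor and all genes in each mouse, CHL2 mutants on the left and wild type on the right of each panel, with bars for the mean and SD of 4 mice. The initiation factor panel shows the mutants at 0.040 to 0.096, above the wild-type mice at -0.071 to -0.048, while the large subunit and all-gene panels overlap.

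Among large subunit genes, 1 of 24 rose, none fell and 17 had a positive change, with a median of 0.11. Rpl6, a structural protein of the large subunit (probe set 1416546_a_at), had log2 signals of 11.57, 11.60, 11.59 and 11.67 in the mutants, against 11.34, 11.37, 11.33 and 11.44 in wild type. Every mutant was above every wild-type mouse. Its log2 change was 0.27 (SE 0.08, 1.20-fold, adjusted p = 0.0441). The call did not withstand the loss of any 1 mouse, with or without sex in the fit (adjusted p 0.0547 to 0.294).

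Rpl7l1, a paralog of Rpl7 whose product acts in large subunit assembly, came next. It had 7.04, 7.20, 7.05 and 7.18 in the mutants, against 6.92, 6.82, 6.63 and 6.61 in wild type. The groups did not overlap, and the log2 change of 0.33 (SE 0.10) missed the threshold at an adjusted p of 0.0575. The other 22 large subunit genes lay between -0.39 and 0.20. The lowest, Rpl27a, was also the least even, with an SE of 0.29. Its mutant values ran from 6.27 to 7.91 and its wild-type values from 6.54 to 7.33. Without sex in the fit, its change was -0.05. Rpl3l, a muscle-type paralog of Rpl3, had a change of -0.29 (adjusted p = 0.115) with all values under 5.

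Among small subunit genes, 1 of 23 rose, none fell and 19 had a positive change, with a median of 0.11. Rps25, a small subunit protein known for its need in initiation at internal ribosome entry sites (probe set 1430978_at), had 7.53, 7.63, 7.27 and 7.62 in the mutants, against 7.02, 7.34, 6.87 and 6.75 in wild type. Mutant 154 lay under wild-type mouse 170, and the other mice did not overlap. Its fitted log2 change was 0.55 (SE 0.15, 1.46-fold, adjusted p = 0.0407), the highest among the members. With sex in the fit, it passed without mutant 154 or wild-type mouse 170. It did not pass there without mutants 141 (adjusted p = 0.0629), 153 (0.0654) or 191 (0.319). Nor did it pass without wild-type mice 161 (0.156), 180 (0.0800) or 200 (0.0661). Of the 16 fits with a mouse left out, with or without sex, 8 kept the call.

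Rps9, a protein of the early assembled body of the small subunit, had 11.57, 11.56, 11.82 and 12.17 in the mutants, against 11.49, 11.55, 11.54 and 11.76 in wild type. Mutant 191 stood above the rest, and the other values overlapped. Its log2 change was 0.36 (SE 0.12, adjusted p = 0.0778). Its brightest probe set has a suffix for probes shared between transcripts, and without such probe sets the change was -0.06, read from a probe set with all values under 5 (means of 4.50 in the mutants and 4.60 in wild type). The third probe set, with means of 10.02 in the mutants and 9.87 in wild type, had a change of 0.11.

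Rps6, the small subunit protein phosphorylated by the S6 kinases, had 7.39, 7.62, 7.53 and 7.49 in the mutants, against 7.25, 7.47, 7.22 and 7.17 in wild type. Wild-type mouse 170 lay above mutant 141, and the log2 change was 0.23 (SE 0.10, adjusted p = 0.172). Rps29, the brightest member, had 13.51 to 13.71 in the mutants and 13.53 to 13.72 in wild type, with a change of 0.03 (adjusted p = 0.886). Rps16 had the dimmest probe set used, with all values under 5. They were 3.34 to 3.62 in the mutants and 3.16 to 3.26 in wild type. The probe sets used for Rps6, Rps16 and Rps25 were dimmer than most, since 32 ribosomal protein genes had a mean log2 signal of at least 10. Which transcripts these dimmer probe sets read was not analysed, so their values need not give the level of the gene. Over the whole small subunit, changes ran from -0.06 for Rps2 to 0.55 for Rps25. Second came Rps4l at 0.47, whose groups overlapped and whose SE was 0.22 (adjusted p = 0.211). Without sex in the fit, the change of Rps4l was 0.13.

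**Figure D4:**
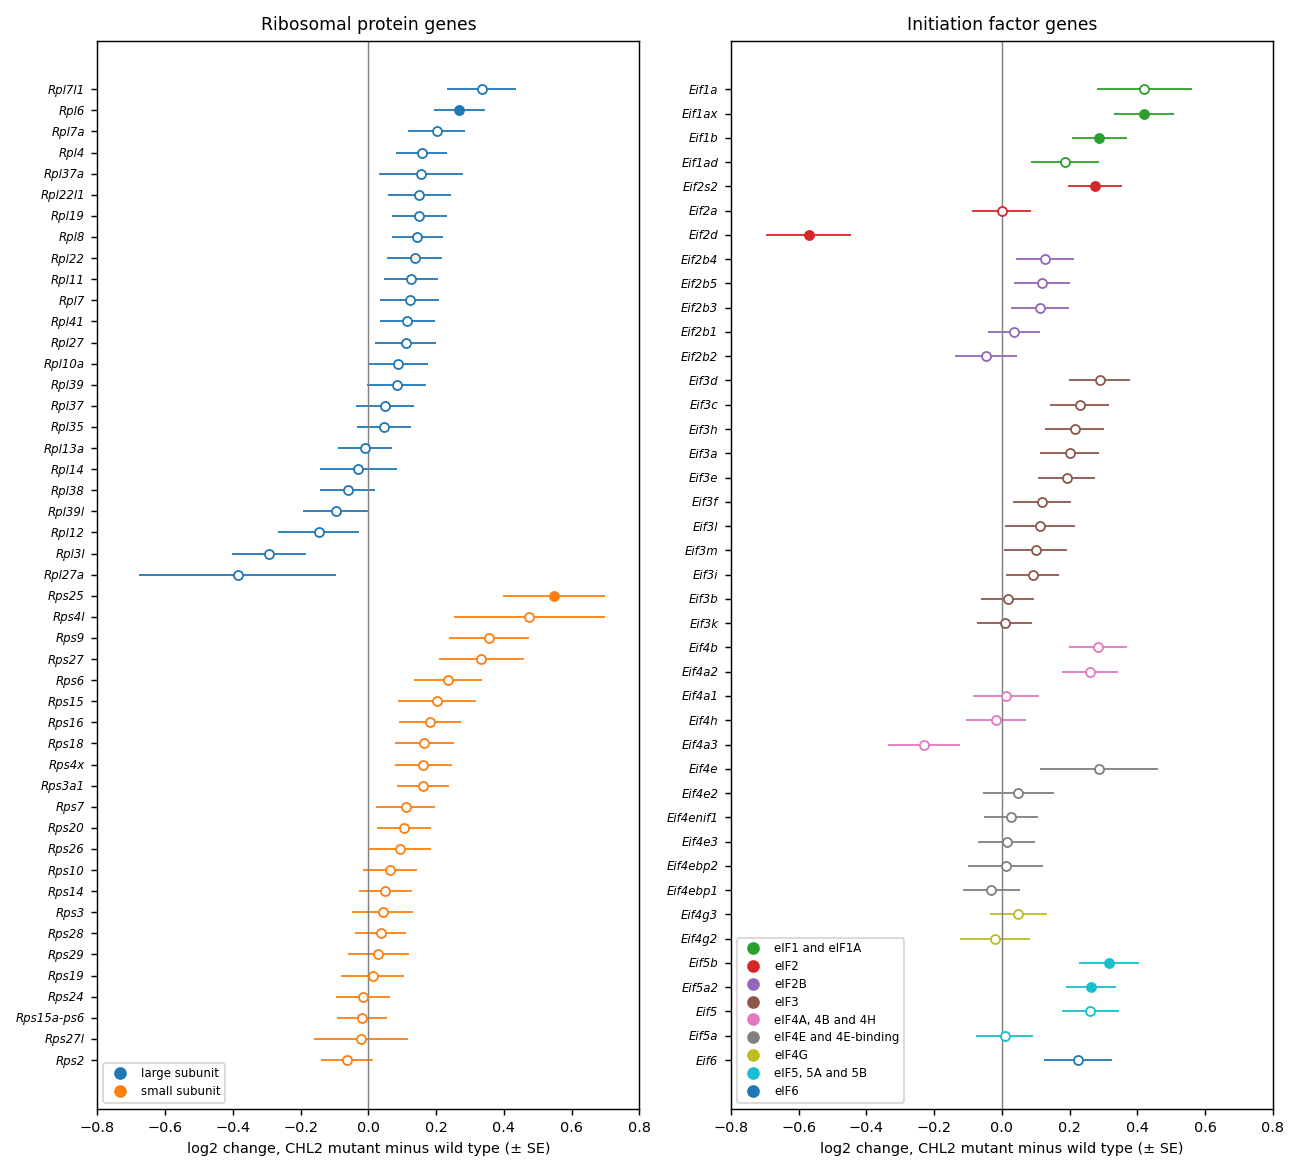
Log2 change between CHL2 mutants and wild type (horizontal axis, bars ± SE) for each of the 47 ribosomal protein genes (left) and 41 initiation factor genes (right), coloured by role. Filled points passed an adjusted p of 0.05. Most points lie to the right of 0, within 0.4, and Eif2d lies farthest to the left at -0.57.

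The initiation factors are taken in the order of their numbers. The factors eIF1 and eIF1A hold the small subunit open for scanning and set the accuracy of start codon choice. All 4 genes placed in this group by symbol had a positive change, and 2 rose. Eif1ax, the X-linked gene of eIF1A (probe set 1437071_at), had 9.49, 9.68, 9.49 and 9.40 in the mutants, against 9.06, 9.07, 9.10 and 9.01 in wild type. Every mutant was above every wild-type mouse, and mutant 153 was the highest. Its fitted log2 change was 0.42 (SE 0.09, 1.34-fold, adjusted p = 0.0114), the lowest adjusted p of the members. With sex in the fit, it did not pass without mutant 191 (adjusted p = 0.0665) or wild-type mouse 161 (0.176). Each was the lone animal of its sex in its group. It passed without each of the other 6 mice. Of the 16 fits with a mouse left out, with or without sex, 14 kept the call.

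Eif1b, a paralog of the eIF1 gene (probe set 1428272_at), had 10.17, 10.22, 10.12 and 9.84 in the mutants, against 9.84, 9.67, 9.61 and 9.52 in wild type. Females were above males within each genotype. The groups did not overlap, though by less than 0.01 between mutant 191 and wild-type mouse 161. The log2 change was 0.29 (SE 0.08, 1.22-fold, adjusted p = 0.0438), and 0.43 without sex in the fit (adjusted p = 0.0139). With sex in the fit it passed only without wild-type mouse 170, and otherwise had an adjusted p of 0.0598 to 0.331. Eif1a, a near copy of Eif1ax, had a change of 0.42 (SE 0.14, adjusted p = 0.0803) in a probe set whose suffix marks shared probes, and -0.06 in its other probe set. Signal of such copies cannot be assigned to 1 of them with certainty.

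The eIF2 group held the 2 opposite calls. Eif2s2 encodes the beta subunit of eIF2, the complex that carries the initiator tRNA (probe set 1417712_at). It had 10.27, 10.34, 10.31 and 10.44 in the mutants, against 10.11, 10.06, 10.11 and 10.06 in wild type. The groups did not overlap, and the wild-type mice lay closer together, with an SD of 0.07 in the mutants and 0.03 in wild type. The log2 change was 0.28 (SE 0.08, 1.21-fold, adjusted p = 0.0470). With sex in the fit, the loss of any 1 mouse put the adjusted p between 0.0582 and 0.417.

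Eif2d, a factor outside the eIF2 complex that can place tRNA on the ribosome without it and acts in recycling, was the 1 member that fell (probe set 1436724_a_at). It had 6.94, 7.13, 6.86 and 6.64 in the mutants, against 7.30, 7.60, 7.40 and 7.38 in wild type. Every mutant was below every wild-type mouse. Its log2 change was -0.57 (SE 0.12, adjusted p = 0.0136). With sex in the fit, it missed the threshold without mutant 191 (adjusted p = 0.280) and passed without any other mouse. Of the 16 fits with a mouse left out, with or without sex, 15 kept the call. It also missed the threshold with no moderation of the variances (0.0888), with values floored at log2 of 32 (0.0732), and with the mean (log2 change -0.18, adjusted p = 0.243) or the median of its probe sets (-0.07, 0.818). Eif2a, which can also deliver initiator tRNA outside the eIF2 complex, showed no such difference: its change was 0.00 with a 95% interval of -0.20 to 0.19.

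None of the 5 genes of eIF2B, the exchange factor that recharges eIF2 with GTP, passed. Their changes ran from -0.05 for Eif2b2 to 0.13 for Eif2b4 (adjusted p = 0.398). Eif2b5, the catalytic subunit, had a change of 0.12 (adjusted p = 0.419) and values that did not overlap, at 8.22 to 8.36 in the mutants and 8.04 to 8.18 in wild type.

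The eIF3 complex, the scaffold on the small subunit that recruits messenger RNA, had a positive change in 11 of 11 measured genes and a median of 0.12, but none passed. Eif3d, its cap-binding subunit, had 9.62, 9.78, 9.67 and 9.76 in the mutants, against 9.47, 9.33, 9.36 and 9.52 in wild type. The groups did not overlap, and the log2 change was 0.29 (SE 0.09, adjusted p = 0.0639). Eif3c, a core subunit, had a change of 0.23 (SE 0.09, adjusted p = 0.120), with overlap. The other 9 ran from 0.01 for Eif3k to 0.21 for Eif3h. At an unadjusted p under 0.05, 5 of the 11 were counted, against 25.8% of all genes. Without sex in the fit 2 passed, Eif3d (adjusted p = 0.0269) and Eif3h (0.0452).

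Of the helicase eIF4A and its helpers, none of 5 genes passed. Eif4b, which stimulates the helicase, had 10.24, 10.48, 10.33 and 10.47 in the mutants, against 10.10, 10.14, 10.16 and 10.15 in wild type. Eif4a2, a helicase gene, had 11.86, 11.78, 11.98 and 11.89 in the mutants, against 11.60, 11.58, 11.64 and 11.69 in wild type. Neither gene overlapped between the groups, and their changes were 0.28 (adjusted p = 0.0551) and 0.26 (adjusted p = 0.0716). Eif4a1, the other cytosolic eIF4A gene, had a change of 0.01 with a 95% interval of -0.21 to 0.23. That was in its brightest probe set. Its 2 other probe sets had changes of 0.41 (SE 0.29) and 0.63 (SE 0.55), and neither passed in a fit over all probe sets.

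None of the 6 genes of cap-binding eIF4E proteins and their partners passed. Eif4e, the cap-binding protein, had 9.16, 9.07, 9.52 and 9.61 in the mutants, against 9.19, 8.74, 9.18 and 9.34 in wild type, and the groups overlapped. Its change was 0.29 with a wide 95% interval of -0.10 to 0.67 (adjusted p = 0.346). The 2 inhibitors that bind eIF4E under control of mTOR were near 0, with changes of -0.03 for Eif4ebp1 (95% interval -0.22 to 0.15) and 0.01 for Eif4ebp2 (-0.24 to 0.26). All Eif4ebp1 values were under 5. Eif4e2, a cap-binding repressor, had a change of 0.05 (adjusted p = 0.834).

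The eIF4G genes measured were Eif4g3, a scaffold between the cap and the small subunit, and Eif4g2, a scaffold that lacks the part that binds eIF4E. Their changes were 0.05 (adjusted p = 0.785) and -0.02 (adjusted p = 0.938).

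Of the 4 genes of eIF5, eIF5A and eIF5B, 2 rose. Eif5b, the GTPase that joins the large subunit (probe set 1434604_at), had 8.001, 8.06, 8.17 and 8.35 in the mutants, against 7.85, 8.007, 7.88 and 7.95 in wild type. Mutant 141 lay just under wild-type mouse 170. The log2 change was 0.32 (SE 0.09, 1.24-fold, adjusted p = 0.0403), and 0.22 without sex in the fit (adjusted p = 0.119). With sex in the fit, it missed the threshold without mutants 154 or 191 or wild-type mice 161, 180 or 200 (adjusted p 0.0702 to 0.382).

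Eif5a2, the second gene of the hypusine-bearing factor eIF5A (probe set 1434593_at), had 8.36, 8.37, 8.29 and 8.34 in the mutants, against 8.06, 8.09, 8.10 and 8.09 in wild type. The groups were tight and did not overlap. The log2 change was 0.26 (SE 0.07, 1.20-fold, adjusted p = 0.0447), and with sex in the fit the loss of any 1 mouse put the adjusted p between 0.0578 and 0.264. Eif5a, the more widely used gene of that factor, had 11.94 to 12.01 in the mutants and 11.85 to 12.07 in wild type, a change of 0.01 (95% interval -0.18 to 0.20).

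Eif6, which keeps the subunits apart and acts in large subunit assembly, had 8.57, 8.33, 8.52 and 8.36 in the mutants, against 8.10, 8.22, 8.27 and 8.36 in wild type. The groups overlapped, and the change was 0.22 (SE 0.10, adjusted p = 0.186).

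Of the 88 members, 54 had more than 1 single-gene probe set, with 129 probe sets beside those used. Of these, 86 had a change of the same sign as the one used and 43 the opposite sign. In a fit over all 45037 probe sets, 6.70% passed, and among the members' probe sets 4 of 102 for ribosomal proteins and 5 of 115 for initiation factors did. The probe sets used for Eif1ax (adjusted p = 0.0244) and Eif2d (0.0283) passed there, while those of the other 6 members called above did not, at 0.0731 to 0.0858. The 4 ribosomal protein probe sets that passed were others, of Rps3, Rps20, Rpl13a and Rpl7l1. That of Rps20 had all values under 5, with means of 4.34 in the mutants and 3.94 in wild type. Eif1ax had a further probe set that rose, by 0.43 on the log2 scale, and another at -0.03. All 6 probe sets of Eif2s2 had a positive change, from 0.11 to 0.47. The 6 of Eif2d disagreed: 3 with signal over 5 had -0.57, -0.44 and -0.35, and another such had 0.30. The remaining 2, with all values under 5, had -0.18 and 0.14. Eif5a2 had 1 other probe set, at 0.09, and Eif5b had 2 others, at 0.22 and 0.004. None of these other probe sets of Eif5a2 and Eif5b passed.

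Probe sets other than the brightest passed for members whose brightest one did not. Rps3, a small subunit protein at the messenger RNA entry, had a change of 0.04 in the probe set used and of 1.03 (adjusted p = 0.00443) in a dimmer one. That dimmer probe set averaged 6.57 in the mutants and 5.71 in wild type. Eif4g2 had -0.02 in the one used and 0.35 (adjusted p = 0.0405) in another, and Rpl13a, a large subunit protein, had -0.01 and 0.47 (adjusted p = 0.0225). Rpl7l1 had 0.33 and 0.65 (adjusted p = 0.0380). These genes were picked after their values were seen. Which transcripts each probe set reads was not analysed here.

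**Figure D5:**
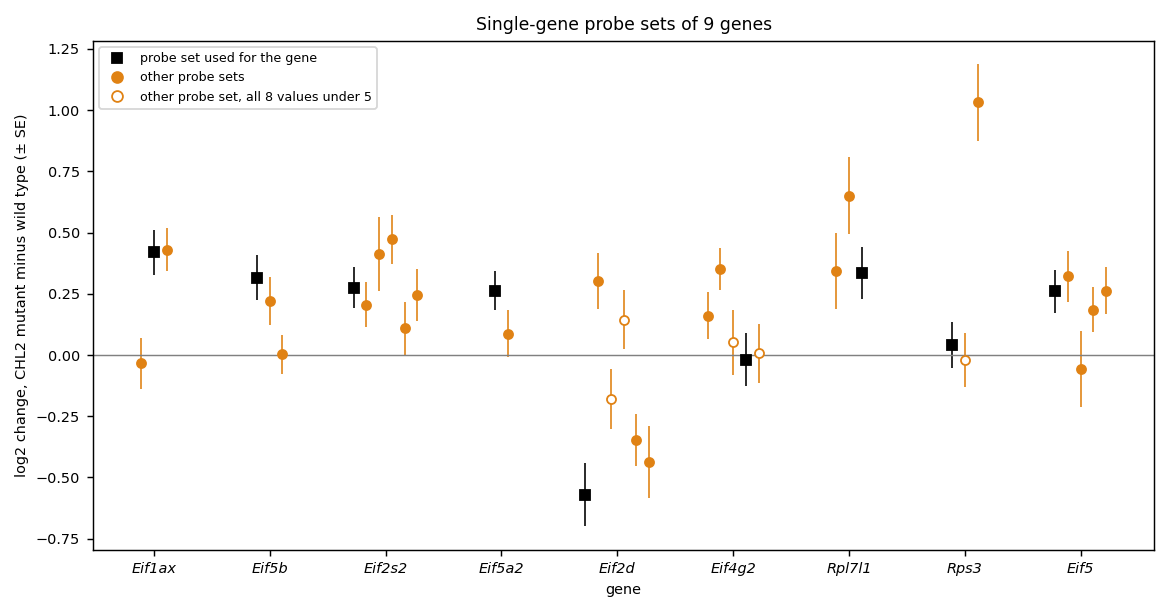
Log2 change between CHL2 mutants and wild type (vertical axis, bars ± SE) of every single-gene probe set of 9 genes (horizontal axis), with squares for the probe set used and circles for the others, open where all 8 values were under 5. The probe sets of Eif2s2 all lie above 0, those of Eif2d lie on both sides of 0, and a dimmer Rps3 probe set lies at 1.03 while the one used lies at 0.04.

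Probe sets assigned to several genes were counted without naming a gene. Of the 109 that list a ribosomal protein gene, 3 rose (2.75%), none fell and 71 had a positive change (65.1%), with a median of 0.05. Over all probe sets 6.70% passed in either direction and 50.7% had a positive change. The median of all probe sets was 0.00.

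Sex was unevenly spread, so it was tested for the same members. No member differed between females and males after adjustment, against 0.0275% of all genes, and 11 had an unadjusted p under 0.05, against 10.6% of all genes. No member had a genotype effect that differed between the sexes after adjustment, against 0.00550% of all genes, and Eif2d alone had an unadjusted p under 0.05 in that limma fit, against 5.04% of all genes. With 1 mouse in 2 of the 4 combinations of genotype and sex, these tests have little precision. Without sex in the genotype fit, 12 members passed, 11 higher and 1 lower, against 15.2% of all genes. Rpl7l1 (adjusted p = 0.0146), Eif1a (0.0240), Eif3d, Eif3h and Eif4a2 (0.0400) were then added, and Eif5b was lost.

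Other genes of the pathway were read from 6 lists, in the same fit. Of 15 measured genes of elongation and termination, 2 rose, none fell and the median was 0.20. These were Etf1, the release factor that reads stop codons (8.93 ± 0.04 in the mutants and 8.53 ± 0.10 in wild type, SD, n = 4, log2 change 0.36, adjusted p = 0.0158), and Gspt2, a GTPase that assists it (log2 change 0.33, adjusted p = 0.0191). Of 4 ribosomal proteins whose symbols fall outside the rule, none passed.

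Of 15 poly(A)-binding proteins and regulators of initiation, 2 fell and none rose, with a median of 0.00. Mcts1, whose protein works with Denr in restarting and recycling ribosomes and shares domains with eIF2D, had 8.75 ± 0.14 in the mutants and 9.57 ± 0.07 in wild type (log2 change -0.75, adjusted p = 0.000519). Its partner Denr had a change of -0.06 (adjusted p = 0.787) and was named here after its values were seen. Cyfip2, which belongs to complexes of actin control and of the fragile X protein, had a log2 change of -0.39 (adjusted p = 0.0180).

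Among 15 genes of the eIF2 kinases and the integrated stress response, which acts through eIF2, 1 rose and none fell. This was Atf5, a transcription factor of that response (7.31 ± 0.04 in the mutants and 6.95 ± 0.19 in wild type, log2 change 0.44, adjusted p = 0.0153). Of 19 mTOR pathway genes, 4 fell and 1 rose, with a median of 0.02. Rasd2, a striatum-rich small GTPase that binds mTOR, had a log2 change of -1.02, Pdpk1, a kinase upstream of Akt, -0.57, and Deptor, an mTOR inhibitor, -0.59, with adjusted p of at most 0.00252. All 13 medium spiny neuron markers fell in the same mice, and their part in these falls was not tested.

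Of 42 ribosome biogenesis genes, 4 rose, 2 fell and 35 had a positive change, with a median of 0.10. Ltv1, which is needed for small subunit assembly, rose (log2 change 0.49, adjusted p = 0.00540). Taf1c, a factor of RNA polymerase I, fell (-0.48, adjusted p = 0.00889), although its groups overlapped, with 6.44 ± 0.21 in the mutants and 6.76 ± 0.19 in wild type, and it did not pass without sex in the fit (adjusted p = 0.107). Also lower was Nhp2, a protein of the particles that modify ribosomal RNA (-0.41, adjusted p = 0.00945). In each list the share that passed can be set against 12.4% of all genes.

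The number of members called fell whichever mouse was left out. Without mutant 191, no ribosomal protein gene, no initiation factor gene and 702 of all genes passed with sex in the fit, against 2258 with all 8 mice. Without wild-type mouse 161, no ribosomal protein gene, 1 initiation factor gene and 864 of all genes passed. Without mutants 141, 153 or 154, the ribosomal protein genes that passed were 0, 1 and 1, the initiation factor genes 4, 3 and 3, and all genes 2044, 2258 and 2015. Without wild-type mice 170, 180 or 200, the ribosomal protein genes were 1, 0 and 1, the initiation factor genes 4, 2 and 2, and all genes 2152, 1820 and 1788. The ribosomal protein gene that passed without mouse 200 was Rpl3l, which was lower in the mutants, and that without mutant 153 was Rps4l, both outside the calls made with all mice. The median changes moved less: they were 0.13 and 0.12 without mutant 191, 0.09 and 0.09 without wild-type mouse 161, and 0.11 and 0.12 without wild-type mouse 170, for ribosomal proteins and initiation factors in that order.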

How the data were processed

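Striatal RNA of 4 CHL2 mutants and 4 wild-type mice was measured on 1 array each. The authors deposited log2 values, made with RMA in the affy package per the submitters' processing notes, with versions not given in the sources used here. The method forces the arrays to 1 distribution, so a shift shared by most genes cannot be seen, and it compresses changes of dim genes. Array medians lay between 4.95 and 4.98, and the number of mice limits the precision.

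Of 45101 probe sets, 64 controls were left out, 34945 had 1 gene, 932 several and 9160 were not listed in the annotation used. The brightest single-gene probe set stood for each of 18194 genes. limma 3.58.1 in R 4.3.3 (lmFit, eBayes) was fitted with genotype and sex, with Benjamini-Hochberg adjustment over all genes and a threshold of 0.05. The fit was tested on simulated data. Members, lists and tests were chosen with earlier results of these data known. Named were all members past the threshold, the 2 lowest adjusted p of each role, Rps6, Rps27a, Rpl10, Eif4e, Eif4ebp1, Eif4ebp2, Eif4g1, Eif2s1, Eif5a, Eif6, the brightest and dimmest member, and up to 3 genes past the threshold per pathway list. Rps27a, Rpl10, Eif4g1 and Eif2s1 had no single-gene probe set and were not analysed here. Other genes were named beyond this rule after their values were seen. They were Rpl3l, Rpl27a, Rpl13a, Rps2, Rps3, Rps4l, Rps20, Eif1a, Eif2a, Eif2b2, Eif3h, Eif3k, Eif4a1 and Denr, and Eif5 in a figure. Rps15a-ps6 was named for its symbol. Other priors, normalizations, filters, probe set rules, array weights, thresholds and mice left out were tried.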

Additional observations from a re-analysis of the deposited data

Results flagged for a closer look

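Groups of 4 values were tested for a mouse that stood apart: 54 from the values of 27 named members in each genotype, and 4 from the mean levels of ribosomal protein and of initiation factor genes in each genotype. Of these 58, 3 held a mouse far from the other 3 of its group by Dixon's ratio, and chance gives about 1 in 20 groups. Eif2b5 was 8.36 in mutant 153, against 8.22 to 8.24 in the other mutants. Eif5a was 11.94 in mutant 153, against 12.001 to 12.01 in the other mutants. Eif2b4 was 8.55 in wild-type mouse 170, while wild-type mice 161, 180 and 200 had 8.36 to 8.39. None of these 3 genes passed the genotype test.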

How the results depend on the processing

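No paired analysis was possible because the groups share no replicate number. Counts of ribosomal protein genes and initiation factor genes that passed were 2 and 6. They became 4 and 12 with trend and robust priors, 4 and 11 with genes below the median level left out, 0 and 0 at an adjusted p under 0.01, and 4 and 11 at an adjusted p under 0.10. Ribosomal protein genes also became 4 with values floored at log2 of 32, 4 with the mean of probe sets and 1 with quantile normalization again, and initiation factor genes became 2 with the median of probe sets. Over all genes, 2258 became 2767 with trend and robust priors and 3218 at an adjusted p under 0.10. With genes below the median level left out, 2541 of 9097 passed. The count over all genes was 1600 with the floor, 1891 with the mean and 1666 with the median of probe sets, and 2191 with quantile normalization again. It was 1325 with no moderation and 1029 at an adjusted p under 0.01. With each mouse left out, with and without a sex term, the counts ran from 0 to 3 ribosomal protein genes, 0 to 6 initiation factor genes and 702 to 2497 of all genes. The medians then ran from 0.075 to 0.13 and from 0.092 to 0.13, and stayed positive. No member passed for sex under the priors or mice tried, nor for the interaction under the priors tried.

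Of the 13 settings other than mice left out, 6 kept the call of Eif5b, 8 that of Eif2d, 9 those of Rps25 and Eif5a2, 11 those of Eif1ax and Eif2s2, and 12 those of Eif1b and Rpl6. All 8 were lost at an adjusted p under 0.01. Rps25 was also lost with no moderation (adjusted p = 0.173), quantile normalization again (0.0562) and the floor (0.160). Eif5b was lost without a sex term (0.119), with no moderation (0.0655), quantile normalization again (0.0548), the floor (0.0506), and the mean (0.139) or median of probe sets (0.191). Eif5a2 was lost with quantile normalization again (0.0703) and the mean (0.147) or median of probe sets (0.203), and Eif2s2 with that median (0.353). Eif1ax kept a positive change in 28 of 29 settings and had -0.0330 with the median of probe sets, which takes its middle one. The other reversals were of genes that did not pass. Rps9 had -0.0560 without shared-probe sets, from a probe set near background, Eif4e2 -0.0594 and Eif4ebp1 0.0222 with the median of probe sets. Rps29 had -0.00395 without a sex term, -0.0114 with quantile normalization again, -0.0182 with the mean and -0.0598 with the median of probe sets. Eif4ebp2 had -0.00906 with quantile normalization again, -0.0577 with the mean, -0.00325 with the median of probe sets and -0.00277 with array weights, and Eif5a -0.00322 with array weights. Eif4g2 had 0.13 without a sex term, 0.11 with the mean of probe sets, 0.16 without shared-probe sets and 0.35 with the median of probe sets. With mice left out, the ranges were -0.141 to 0.238 for Eif4e2, -0.0910 to 0.0283 for Eif4ebp1, -0.0679 to 0.289 for Eif4ebp2, -0.0912 to 0.228 for Eif4g2, -0.0387 to 0.0327 for Eif5a and -0.0379 to 0.0523 for Rps29. The causes were not tested. Members with signal under 5 are near background, which limits them.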
